A study of Mus musculus with 9 samples.

Results

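The genes described here are 10 genes of the acute-phase response and the complement system, of 48230 genes in the deposited expression table. They are the serum amyloid A genes Saa1, Saa2 and Saa3, the iron- and haemoglobin-binding secreted proteins Lcn2 and Hp, the complement components C3, C4b and Cfb, and the complement regulators Cd55 and Cd59a. They were picked by gene name with their expression in these libraries already known, so their own values are a description and carry no test. RNA was measured in BeCon tumor cells in 9 libraries. In 4 libraries the cells came from the ascites of BeCon-bearing B6 mice given YKL-05-099, which inhibits salt-inducible kinases, and in 4 from such mice given vehicle. Cells of the 8 mouse libraries had been sorted as viable CD45- MHCI+ cells, a gate that leaves out leukocytes but keeps any other host cell with MHC class I. The remaining library, from BeCon cells grown in vitro, has no replicate. The labels do not give the dose, the length of treatment or the age of the mice, nor whether each library holds cells of 1 mouse or of several pooled mice. The p-values therefore rest on the variation among the libraries as deposited. Names of libraries within a mouse group share a prefix, and anything that went with that prefix cannot be told apart from the treatment.

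The acute-phase response is the change in secreted proteins that follows infection or tissue injury. Cytokines of the interleukin-6 and interleukin-1 families act mainly on the liver through STAT3, NF-kappaB and C/EBP factors, and other cells, macrophages and epithelial cells among them, make some of the same proteins locally. Complement is a cascade of plasma proteins in which the classical, lectin and alternative pathways converge on cleavage of C3, and membrane proteins such as CD55 and CD59 protect a cell from its own complement.

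The mouse libraries held about 24000000 to 35000000 fragments each, an approximate value read from the lowest levels in the table, and the cultured library about 29000000. Levels are FPKM, the fragments assigned to a gene divided by its transcript length in kilobases and by the library's mapped fragments. On log2(FPKM + 1) the libraries correlated at 0.989 to 0.992 within the YKL-05-099 group and at 0.986 to 0.993 within the vehicle group, at 0.965 to 0.981 between them, and at 0.854 to 0.868 between the cultured library and the mouse libraries. Of 10 epithelial and ovarian tumor markers, 7 averaged at least 1 FPKM in YKL-05-099 mice and 7 in vehicle mice, and 5 reached it in culture. All 8 mesothelial markers did so in both mouse groups, and the marker lists share Msln, Wt1, Muc16 and Krt19. Cdh1, Epcam and Pax8 were under 1 FPKM.

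The 3 serum amyloid A genes lie together within 42316 bases of chromosome 7. The GENCODE coding sequences of Saa1 and Saa2 were identical at 95.1% of aligned positions, while Saa3 was identical to Saa1 at 75.7% and to Saa2 at 74.7%. Reads of Saa1 and Saa2 may be shared between them in the authors' quantification, so a separate value for either would be uncertain. The first 90 coding bases, which begin with the start codon and cover the signal peptide, are shown on the genome build GRCm38. In this stretch Saa1 and Saa2 each differ from Saa3 at 44 bases, a larger share than over the whole coding sequence. Capitals in Saa1 and Saa2 mark bases that differ from Saa3 at the same position, read without gaps. The stretch lies at chr7:46715011-46715100 for Saa3, at chr7:46742433-46742522 for Saa1 (both on the minus strand) and at chr7:46752291-46752380 for Saa2 (plus strand).
Saa3: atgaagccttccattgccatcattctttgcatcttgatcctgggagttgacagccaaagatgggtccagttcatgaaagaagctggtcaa
Saa1: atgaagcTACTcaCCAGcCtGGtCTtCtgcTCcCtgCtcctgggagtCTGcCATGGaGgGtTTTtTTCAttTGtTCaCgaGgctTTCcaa
Saa2: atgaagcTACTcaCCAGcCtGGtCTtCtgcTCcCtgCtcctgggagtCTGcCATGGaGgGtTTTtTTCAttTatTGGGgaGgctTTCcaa

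The bases just before the annotated start are shown for Saa3 and C3, the members that were lower under YKL-05-099 without overlap, and for Saa1, the relative of Saa3 that was listed at 0. They come from the RefSeq promoter table on GRCm38.p6, which held 7 of the 10 members, not Hp, C4b or Cfb. Each window ends before the first annotated exon, and capitals mark matches to the C/EBP pattern TTNNGNAA on either strand. The window of Saa3 is chr7:46715701-46715926, that of Saa1 chr7:46742981-46743230 and that of C3 chr17:57228137-57228386, all on the minus strand.
Saa3 upstream: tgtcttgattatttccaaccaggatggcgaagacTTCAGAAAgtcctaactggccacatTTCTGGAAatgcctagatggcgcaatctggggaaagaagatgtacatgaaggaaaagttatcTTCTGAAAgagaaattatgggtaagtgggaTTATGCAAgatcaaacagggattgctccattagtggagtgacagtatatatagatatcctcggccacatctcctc
Saa1 upstream: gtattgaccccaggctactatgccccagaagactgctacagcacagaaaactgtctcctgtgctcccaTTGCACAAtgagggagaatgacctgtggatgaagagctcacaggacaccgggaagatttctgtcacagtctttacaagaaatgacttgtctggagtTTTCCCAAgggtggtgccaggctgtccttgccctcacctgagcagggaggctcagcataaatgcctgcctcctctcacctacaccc
C3 upstream: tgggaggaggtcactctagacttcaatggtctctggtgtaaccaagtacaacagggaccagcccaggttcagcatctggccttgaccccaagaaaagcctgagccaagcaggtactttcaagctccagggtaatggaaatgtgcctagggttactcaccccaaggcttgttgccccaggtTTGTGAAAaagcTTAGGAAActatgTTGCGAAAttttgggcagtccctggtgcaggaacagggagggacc
Saa3 held 4 matches, C3 held 3 and Saa1 held 2. Of 32851 RefSeq promoters searched over 250 bases, 36.8% held at least 1 such match, 2.61% at least 3 and 0.591% at least 4. Saa2 held 1 match in its trimmed window, and Cd55 and Cd59a held none. The window of Lcn2 lies within an annotated exon and is not shown. The NF-kappaB pattern (GGG, any 2 bases, then TTTCC), present in 1.41% of promoters, and the STAT pattern TTCNNNGAA, present in 7.02%, were in none of the member windows. The CRE half-site TGACG, present in 17.8% of promoters, was in the window of Cd55. None of the matches overlapped another pattern. These are matches of letters in a short window, and no binding was measured. The 250-base windows of Saa1 and Saa2 were identical at 94.8% of aligned positions, against 48.9% for Saa1 and Saa3.

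Across the 10 genes the largest difference between YKL-05-099 and vehicle was in Saa3, which was 11.4 times lower. C3 was lower as well, Hp was higher, and the remaining expressed members differed little or with overlapping libraries. Of the 8 members that passed the filter on low values (at least 1 FPKM in at least 4 of the 8 mouse libraries), 6 were among the genes called in the comparison of YKL-05-099 with vehicle, 5 lower and 1 higher. Genes were called with limma on log2(FPKM + 1), at a Benjamini-Hochberg adjusted p under 0.05. Of all 11788 genes tested 43.2% were called, 15.1% lower and 28.0% higher. With the levels rescaled by median-of-ratios size factors, the calls over all genes split into 2475 higher and 2495 lower, against 3304 higher and 1785 lower without rescaling. The groups did not overlap in 3 members, Saa3 and C3 lower and Hp higher, while 40.0% of all genes tested did not overlap (13.5% lower and 26.5% higher). The median log2 fold change was -0.32 over the 8 members and 0.05 over all genes tested. Because the members were picked with this comparison known, these shares describe them and are read no further.

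**Figure D1:**
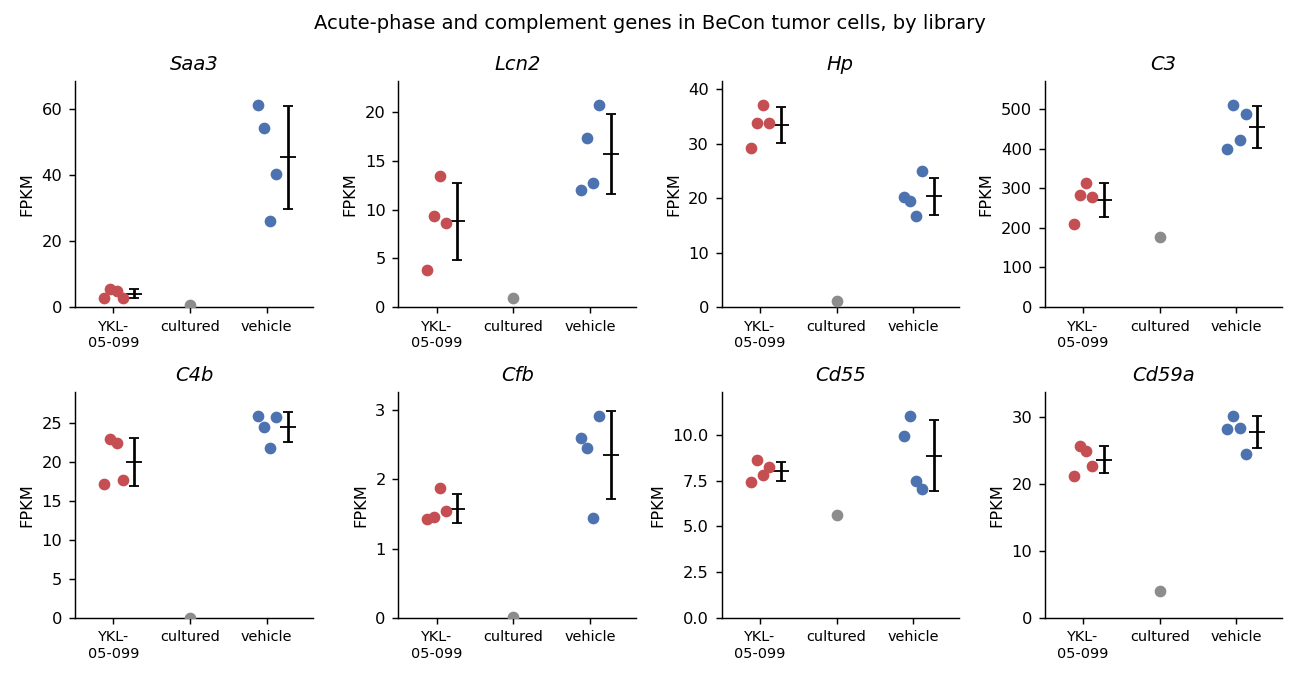
Level of each expressed member in every library, in FPKM on a linear axis from 0, 1 point a library, beside the mean (tick) and SD (bar) of each mouse group, with YKL-05-099 at the left, the cultured library in the middle and vehicle at the right. In Saa3 and C3 all YKL-05-099 points lie under all vehicle points, in Hp they lie above them, and in each of the 8 panels the cultured point is the lowest.

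Serum amyloid A proteins are small apolipoproteins carried on high-density lipoprotein. Saa1 and Saa2 are the forms that the mouse liver secretes in the acute phase, and Saa3 is made mostly outside the liver, in macrophages and fat among other cells. Saa1 (ENSMUSG00000074115, chr7:46740497-46742980) and Saa2 (ENSMUSG00000057465, chr7:46751790-46754313) were listed at 0 in all 9 libraries, as was their neighbour Saa4. Coordinates of genes follow the authors' table (GRCm38, first base counted as 1). Saa3 (ENSMUSG00000040026, chr7:46711998-46715700) was at 2.87, 5.38, 4.93 and 2.82 FPKM in the libraries from YKL-05-099 mice, at 0.573 FPKM in the cultured library, and at 61.3, 54.5, 26.1 and 40.3 FPKM in the libraries from vehicle mice. The highest YKL-05-099 library was thus well under the lowest vehicle library. The mean was 4.00 ± 1.35 FPKM in YKL-05-099 mice and 45.5 ± 15.6 FPKM in vehicle mice (SD, n = 4 each), and the log2 fold change on the log2(FPKM + 1) scale was -3.19 with an SE of 0.26. It was the 7th largest fall among the 11788 genes tested. By level Saa3 ranked 9799 of 48230 genes under YKL-05-099 and 1986 under vehicle.

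Lipocalin 2, encoded by Lcn2 (ENSMUSG00000026822, chr2:32384633-32388252), binds bacterial siderophores and so withholds iron. Its level was 3.83, 9.37, 13.5 and 8.60 FPKM in YKL-05-099 mice, 0.928 FPKM in culture, and 12.05, 17.4, 12.7 and 20.7 FPKM in vehicle mice. The third YKL-05-099 library lay above 2 vehicle libraries, so the groups overlapped, and the YKL-05-099 libraries differed among themselves by 3.51 times. The mean was 8.81 ± 3.95 FPKM in YKL-05-099 mice and 15.7 ± 4.10 FPKM in vehicle mice, with a log2 fold change of -0.84 (SE 0.30). The call of Lcn2 held in 10 of 18 alternative analyses. It was lost without YKL-05-099 replicate 1, 2 or 4 or without vehicle replicate 2, 3 or 4. It was also lost with no filter on low values and with no mean-variance trend.

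Haptoglobin, encoded by Hp (ENSMUSG00000031722, chr8:109575128-109579172), binds free haemoglobin. It was the member that was higher: 29.2, 33.7, 37.1 and 33.8 FPKM in YKL-05-099 mice, 1.19 FPKM in culture, and 20.2, 19.5, 16.8 and 25.0 FPKM in vehicle mice. Every YKL-05-099 library was above every vehicle library. The mean was 33.5 ± 3.23 FPKM in YKL-05-099 mice and 20.4 ± 3.41 FPKM in vehicle mice, 1.64 times higher, with a log2 fold change of 0.70 (SE 0.11).

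C3 (ENSMUSG00000024164, chr17:57203970-57228136), the protein on which all complement pathways converge, had the highest level of the 10 genes. It was at 209.9, 281.8, 313.3 and 277.0 FPKM in YKL-05-099 mice, 176.4 FPKM in culture, and 398.9, 509.5, 421.9 and 488.6 FPKM in vehicle mice. The groups did not overlap. The mean of 271 ± 43.5 FPKM in YKL-05-099 mice was 59.5% of the 455 ± 52.8 FPKM in vehicle mice, a log2 fold change of -0.76 (SE 0.12). By level C3 ranked 248 of 48230 genes under YKL-05-099, 402 in culture and 134 under vehicle.

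C4b (ENSMUSG00000073418, chr17:34728380-34743882) encodes C4, the component that the classical and lectin pathways cleave to build their C3 convertase. It was at 17.1, 22.9, 22.4 and 17.6 FPKM in YKL-05-099 mice, 0.00499 FPKM in culture, and 25.9, 24.5, 21.7 and 25.8 FPKM in vehicle mice. Replicates 2 and 3 of YKL-05-099 were above the lowest vehicle library, so the groups overlapped. The log2 fold change was -0.29 (SE 0.10), and its call held in 9 of 18 alternative analyses. Among those that left out a library, it was lost without YKL-05-099 replicate 1 or 4 or vehicle replicate 1, 2 or 4. C4a, a near-identical copy whose longest transcript matched that of C4b at 95.9% of positions and which lies 65209 bases away, was at 0.158 to 0.694 FPKM in the mouse libraries, and reads of the pair may be split between them.

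Factor B, encoded by Cfb (ENSMUSG00000090231, chr17:34856374-34862518), supplies the protease of the alternative-pathway convertase. It was at 1.43, 1.46, 1.88 and 1.54 FPKM in YKL-05-099 mice, 0.0109 FPKM in culture, and 2.59, 2.46, 1.45 and 2.92 FPKM in vehicle mice. Every YKL-05-099 library lay under 3 of the vehicle libraries, but vehicle replicate 3 lay within the YKL-05-099 range, so the groups overlapped. The log2 fold change was -0.36 (SE 0.14), and Cfb was not among the genes called, although it was called lower in 3 of 17 alternative analyses, under median-of-ratios and quantile scaling and without vehicle replicate 3. Its neighbour C2, the serine protease that plays the same part in the classical and lectin pathways, starts 85 bases further on and is described with the other components.

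Cd55 (ENSMUSG00000026399, chr1:130439027-130462744) encodes decay-accelerating factor, which takes C3 convertases apart on the cell surface. It was at 7.42, 8.64, 7.79 and 8.23 FPKM in YKL-05-099 mice, 5.63 FPKM in culture, and 9.95, 11.05, 7.48 and 7.03 FPKM in vehicle mice. The vehicle libraries spread on both sides of the YKL-05-099 libraries. The log2 fold change was -0.11 (SE 0.12), within the spread, and Cd55 was not among the genes called. Its copy Cd55b was listed at 0 in the YKL-05-099 libraries and in culture and averaged 0.0565 ± 0.0271 FPKM in vehicle mice.

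Cd59a (ENSMUSG00000032679, chr2:104095801-104115354) encodes the membrane inhibitor of the terminal attack complex. It was at 21.2, 25.6, 24.8 and 22.7 FPKM in YKL-05-099 mice, 4.03 FPKM in culture, and 28.2, 30.1, 28.3 and 24.4 FPKM in vehicle mice. The lowest vehicle library lay within the YKL-05-099 range, so the groups overlapped. The log2 fold change was -0.23 (SE 0.08), and its call held in 12 of 18 alternative analyses. It was lost with no filter on low values and without YKL-05-099 replicate 1 or 4 or vehicle replicate 1, 2 or 3. Cd59b, its neighbour at 4613 bases with 74.9% of the coding positions in common, averaged 2.42 ± 0.251 FPKM in YKL-05-099 mice and 1.97 ± 0.494 FPKM in vehicle mice and was not called.

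Between genes, FPKM is a level per length of transcript. In YKL-05-099 mice the order of mean levels was C3, Hp, Cd59a, C4b, Lcn2, Cd55, Saa3 and Cfb. In vehicle mice it was C3, Saa3, Cd59a, C4b, Hp, Lcn2, Cd55 and Cfb. Saa3 stood second in vehicle mice and next to last in YKL-05-099 mice, but among vehicle libraries its lowest value of 26.1 FPKM lay within the range of Cd59a. In YKL-05-099 mice the libraries of Cd59a and C4b overlapped, as did those of Lcn2 and Cd55. In vehicle mice Saa3, Cd59a, C4b and Hp each overlapped the next gene in the order, while Lcn2 lay above Cd55 in every library.

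**Figure D2:**
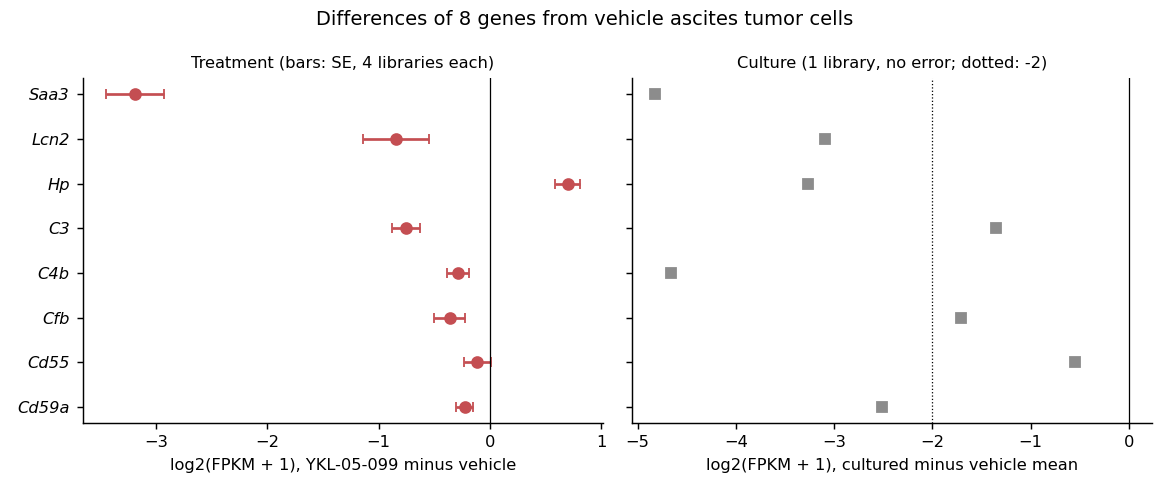
Log2 fold change of the 8 expressed members, YKL-05-099 minus vehicle on the log2(FPKM + 1) scale with its standard error, beside the difference of the cultured library from the vehicle mean, which has no error. Saa3 is the lowest member of the treatment comparison at -3.19, Hp at 0.70 is the member above 0, and all 8 differences of the cultured library are below 0.

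In culture all 8 expressed members were below every mouse library. No share over all genes is given for this count, so it is read no further. A gene was counted as apart where the cultured value was above or below all 8 mouse libraries and differed from the mean of the vehicle libraries by 2 or more log2 units, a rule of size with no test because culture has 1 library. By this rule Saa3, Lcn2, Hp, C4b and Cd59a were apart, all 5 lower. Genes entered this comparison with at least 1 FPKM in at least 4 of the 8 mouse libraries or in culture. Saa3, Lcn2, C4b and Cfb were under 1 FPKM in culture, so they entered through the mouse libraries alone. They could be apart only as lower, so their direction is not read, nor is the median below that includes them. Of the 12296 genes compared, 5.14% were apart, 3.06% lower and 2.08% higher. The median difference from vehicle was -2.80 over the 8 members and 0.03 over all genes compared. Saa3 in culture was 1.26% of the vehicle mean and C3 was 38.8%, and Cd55 differed by -0.55 log2 units. C4b and Cfb in culture were no higher than about the worth of 1 fragment, 0.00645 and 0.0126 FPKM for their transcript lengths, so no fold is given for them. Passage through the mouse, sorting and the presence of other cells all differ between these libraries and cannot be told apart.

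The C1q genes, which start the classical pathway, and other macrophage transcripts moved with the treatment in the same libraries. The summed level of 16 macrophage markers was 31.8, 100.7, 113.8 and 31.5 FPKM in YKL-05-099 mice, 12.3 FPKM in culture, and 445.3, 590.5, 296.9 and 256.2 FPKM in vehicle mice. The sum in every vehicle library exceeded the sum in every YKL-05-099 library. Of the 16 markers, 9 averaged at least 1 FPKM in YKL-05-099 mice, 2 reached it in culture and 14 averaged it in vehicle mice, and of 11 tested, 10 were called lower and none higher. Csf1r and Msr1 were tested through the vehicle libraries alone, and of the other 9 tested, 8 were called lower. In the replicates 2 and 3 of YKL-05-099, where the macrophage sum was higher, Saa3 was also at its higher values of 5.38 and 4.93 FPKM, against 2.87 and 2.82 FPKM in the other YKL-05-099 libraries. Among the vehicle libraries Saa3 was at 61.3 and 54.5 FPKM where the macrophage sum was 445.3 and 590.5 FPKM, and at 26.1 and 40.3 FPKM where it was 296.9 and 256.2 FPKM. Hp was higher in the YKL-05-099 libraries, whose macrophage sums were lower, although within that group its highest library was the one with the highest sum. Pan-leukocyte markers summed to 20.2 to 28.2 FPKM in YKL-05-099 mice, 14.8 FPKM in culture and 38.0 to 71.2 FPKM in vehicle mice. Neutrophil markers summed to 0.308 to 1.68 FPKM in YKL-05-099 mice, 0.173 FPKM in culture and 2.23 to 4.50 FPKM in vehicle mice, with Ly6g listed at 0 in all 9 libraries. Hepatocyte markers summed to 111.1 to 126.7 FPKM in YKL-05-099 mice, 13.1 FPKM in culture and 63.1 to 73.3 FPKM in vehicle mice, most of it Ahsg, with Apob, Cyp3a11, Serpina1a and Ttr listed at 0 in all 9 libraries. Fibroblast, B and plasma cell, erythroid and adipocyte markers summed lower in the YKL-05-099 libraries. Platelet and megakaryocyte markers summed higher, to 29.4 to 34.5 FPKM in YKL-05-099 mice against 15.5 to 24.7 FPKM in vehicle mice. In that list Itga2b was called higher and Pf4 lower. Sums of T and NK cell markers overlapped, at 0.406 to 0.839 FPKM in YKL-05-099 mice and 0.461 to 1.14 FPKM in vehicle mice. Fibroblasts are cells that a CD45- gate would keep. Their markers summed to 555 to 634 FPKM in YKL-05-099 mice, 338 FPKM in culture and 656 to 709 FPKM in vehicle mice. Of 6 tested, 5 were called lower and none higher. Most of the sum was Dcn, which averaged 503 FPKM in YKL-05-099 mice and 523 FPKM in vehicle mice and was not called. In culture Dcn was at 243 FPKM and Col1a1 at 32.2 FPKM, so BeCon cells alone held transcripts of this list. Col1a2, a chain of type I collagen, averaged 2.86 ± 0.627 FPKM in YKL-05-099 mice and 19.7 ± 5.27 FPKM in vehicle mice (SD, n = 4 each). It was named after its values were seen, and other fibroblast markers called lower fell less. Col1a1 averaged 4.23 FPKM in YKL-05-099 mice and 9.52 FPKM in vehicle mice, and Pdgfra averaged 5.95 and 12.1 FPKM. Col3a1 averaged 48.8 FPKM in YKL-05-099 mice and 66.6 FPKM in vehicle mice, and Loxl1 averaged 38.8 and 49.6 FPKM. B and plasma cell markers summed to 0.941 to 1.75 FPKM in YKL-05-099 mice, 0.738 FPKM in culture and 19.2 to 70.8 FPKM in vehicle mice, and the 4 tested all passed the filter through the vehicle libraries alone. Erythroid markers summed to 1.45 to 92.8 FPKM in YKL-05-099 mice, 0.188 FPKM in culture and 243.9 to 1487 FPKM in vehicle mice. Adipocyte markers summed to 0.357 to 0.541 FPKM in YKL-05-099 mice, 0.266 FPKM in culture and 1.21 to 3.19 FPKM in vehicle mice. Most of it was Fabp4 in the mouse libraries, and Cfd and Cidec were listed at 0 in all 9 libraries. Fabp4 was the 1 adipocyte marker tested, and it passed the filter through the vehicle libraries alone. Retn was not lower, averaging 0.117 FPKM in YKL-05-099 mice and 0.0886 FPKM in vehicle mice. The part of the macrophage, fibroblast and other transcripts in the results for the members was not tested, and in sorted bulk RNA fewer cells of a type and less RNA per cell cannot be told apart.

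**Figure D3:**
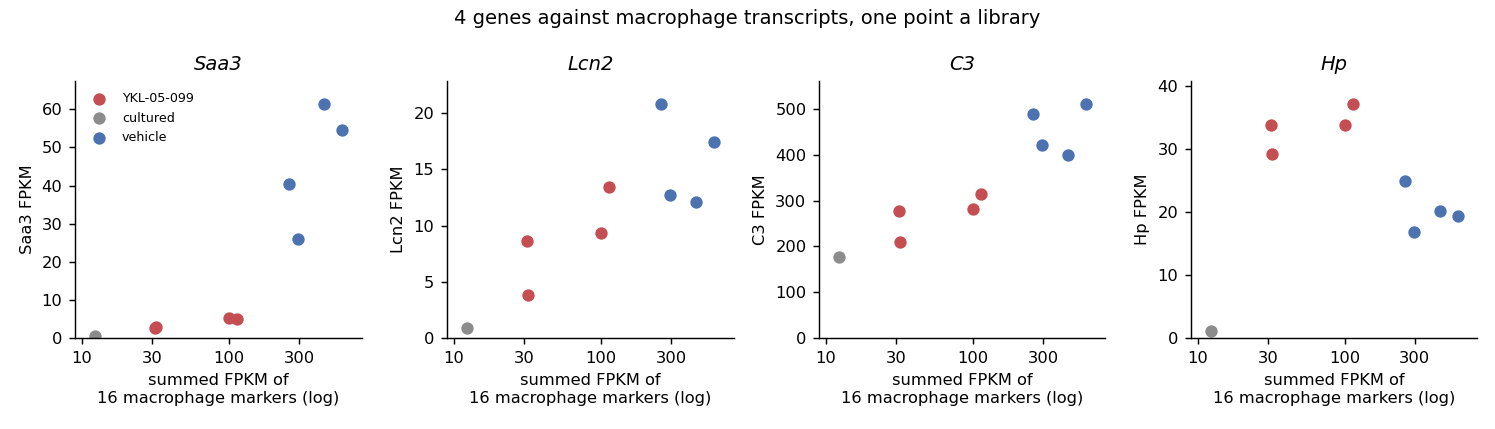
Level of Saa3, Lcn2, C3 and Hp in FPKM (vertical axis, linear) against the summed FPKM of 16 macrophage markers (horizontal axis, logarithmic), 1 point a library, with YKL-05-099, cultured and vehicle libraries in their own colours. In Saa3 the vehicle libraries lie at 26.1 FPKM or higher with a macrophage sum of 256.2 FPKM or higher, and the YKL-05-099 libraries lie under both; in Hp the YKL-05-099 libraries lie above all vehicle libraries.

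For Saa3, C3 and Cd55 the 5 tested genes with the highest positive correlation of log2(FPKM + 1) over the 8 mouse libraries were named, as a description. Genes with predicted or clone symbols (Gm, Rik, AC, BC, AI and CT names) were left out. For Saa3 these were Ccl7, Slpi, Fam198b, P2ry2 and Ccl2, with Pearson r of 0.996, 0.991, 0.989, 0.987 and 0.987. Ccl7 and Ccl2 are chemokines that draw monocytes, and Slpi is a secreted inhibitor of proteases. Ccl2 averaged 7.99 FPKM in YKL-05-099 mice, was 24.2 FPKM in culture and averaged 75.5 FPKM in vehicle mice. For C3 they were Adgra2, Ssb, Tst, Ctps and Fxyd5, with r between 0.982 and 0.988. For Cd55 they were Zdhhc3, Vcan, Ggact, Epb41l4aos and AA467197, with r between 0.909 and 0.966. The 8 libraries fall into 2 treatment groups, and these coefficients include the difference between them.

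The other genes of the pathways were taken from 6 lists, of 123 genes in all, of which 54 passed the filter and 27 were called, 9 higher and 18 lower, or 50.0%. Over all genes tested 43.2% were called, 28.0% higher and 15.1% lower. Of the 54 genes, 4 (C5ar1, Itgam, Itgb2 and Cd36) were under 1 FPKM in every YKL-05-099 library. They passed the filter through the vehicle libraries alone and so had to be lower. Of the other 50, 9 were called higher and 14 lower. The lists were written with results of these data known, and they are described by counts and medians alone. Adjusted p-values below are from limma over all 11788 genes.

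Most other acute-phase genes were below the filter. Of 34 genes in this list 9 passed the filter, 1 was called higher and 4 lower, with a median log2 fold change of -0.08, and 12 were listed at 0 in all 9 libraries. These included the fibrinogen genes Fga and Fgg and the orosomucoid genes Orm1, Orm2 and Orm3, named after their values were seen. Ahsg, which encodes fetuin-A, a protein that falls in the acute phase, was higher, at 107.4, 117.4, 113.8 and 123.4 FPKM in YKL-05-099 mice, 11.6 FPKM in culture and 71.2, 68.1, 67.6 and 61.3 FPKM in vehicle mice, without overlap (log2 fold change 0.78, SE 0.06, limma adjusted p = 1.58e-05). Cp, which encodes the copper-binding ferroxidase ceruloplasmin, was lower, at 90.3 ± 9.73 FPKM in YKL-05-099 mice and 135.0 ± 15.6 FPKM in vehicle mice (SD, n = 4 each, limma adjusted p = 0.00112), and 134.5 FPKM in culture. The metal-binding metallothionein gene Mt2 (log2 fold change -1.14, adjusted p = 0.0134), the lipopolysaccharide co-receptor gene Cd14 (-1.12, adjusted p = 0.0283) and the metalloreductase gene Steap4 (-0.64, adjusted p = 0.033) were lower too, by limma. The calls of Cd14 and Steap4 were each lost without YKL-05-099 replicate 1 or 4 or without vehicle replicate 1 or 2. Lbp, which encodes lipopolysaccharide-binding protein, averaged 58.1 ± 4.65 FPKM in YKL-05-099 mice and 56.8 ± 4.43 FPKM in vehicle mice and was not called (limma adjusted p = 0.737), and it was at 1.44 FPKM in culture.

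Among 27 complement components, 11 passed the filter, 2 were called higher and 4 lower, with a median of -0.22. The genes that were lower were Fcna, which encodes the lectin-pathway ficolin A, and C1qa, C1qb and C1qc, which encode the chains of C1q. C1qa was at 1.31, 5.54, 6.97 and 0.453 FPKM in YKL-05-099 mice, listed at 0 in culture, and at 24.2, 37.2, 15.6 and 15.96 FPKM in vehicle mice, without overlap (log2 fold change -2.65, SE 0.51, limma adjusted p = 0.0027). C1qc and C1qb changed by -2.39 and -2.43 log2 units (limma adjusted p = 0.00441 and 0.00611), and Fcna by -2.32 (adjusted p = 0.00185). The 3 C1q genes are also in the macrophage list. Masp1, a protease of the lectin pathway, and C2 were called higher, at 10.9 ± 0.782 FPKM in YKL-05-099 mice and 9.32 ± 0.610 FPKM in vehicle mice for Masp1 (SD, n = 4 each, limma adjusted p = 0.0282). C2 averaged 25.7 ± 1.97 FPKM in YKL-05-099 mice and 21.4 ± 2.66 FPKM in vehicle mice (limma adjusted p = 0.0361). The call of C2 was lost under all 3 other scalings and without YKL-05-099 replicate 1, 2 or 4 or vehicle replicate 2, 3 or 4. That of Masp1 was lost under median-of-ratios and quantile scaling and without YKL-05-099 replicate 1, 2 or 4 or vehicle replicate 2 or 4. Of 16 complement regulators, 5 passed the filter and Cfi, the protease that inactivates C3b and C4b, was called lower, at 0.925 ± 0.102 FPKM in YKL-05-099 mice and 1.77 ± 0.513 FPKM in vehicle mice (limma adjusted p = 0.0144), with 4 not called and a median of -0.02.

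Of 11 complement receptors 5 passed the filter, and 3 of these did so through the vehicle libraries alone, so their count and median are not read. These 3 were C5ar1, the receptor for C5a, and Itgam and Itgb2, which form complement receptor 3, all leukocyte genes. C5ar1 averaged 0.217 FPKM in YKL-05-099 mice and 1.76 FPKM in vehicle mice, and Itgam averaged 0.470 FPKM in YKL-05-099 mice and 2.94 FPKM in vehicle mice. Of the other 2, C1qbp, which encodes a C1q-binding protein found mainly in mitochondria, was called lower. It averaged 67.4 ± 2.46 FPKM in YKL-05-099 mice and 78.3 ± 0.824 FPKM in vehicle mice (limma adjusted p = 0.00191). Calr, which encodes calreticulin, was called higher at 416 ± 34.4 FPKM in YKL-05-099 mice and 307 ± 82.1 FPKM in vehicle mice (limma adjusted p = 0.028), a call lost under median-of-ratios scaling and without YKL-05-099 replicate 2 or 4 or vehicle replicate 1, 2 or 3. Of 11 receptors of acute-phase proteins 6 passed the filter. Cd36, a scavenger receptor of macrophages and other cells, passed through the vehicle libraries alone and averaged 0.374 FPKM in YKL-05-099 mice and 3.44 FPKM in vehicle mice. Of the other 5, 1 was called higher and none lower. That gene, Scarb1, the receptor for high-density lipoprotein, averaged 109.7 ± 2.55 FPKM in YKL-05-099 mice and 98.8 ± 3.70 FPKM in vehicle mice (limma adjusted p = 0.0151), a call lost under median-of-ratios scaling.

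Of 24 inducers and signalling genes of the acute-phase response 18 passed the filter, 4 were called higher and 4 lower, with a median of 0.08. Lif, a cytokine of the interleukin-6 family, averaged 4.31 ± 0.427 FPKM in YKL-05-099 mice and 10.4 ± 0.914 FPKM in vehicle mice (log2 fold change -1.11, SE 0.08, limma adjusted p = 1.31e-05), and 14.9 FPKM in culture. Stat3, the transcription factor that interleukin-6 activates, averaged 214.5 ± 12.3 FPKM in YKL-05-099 mice and 155.6 ± 11.7 FPKM in vehicle mice (log2 fold change 0.46, SE 0.06, limma adjusted p = 0.000397). Bcl3 and Nfkb1, members of the NF-kappaB pathway, were higher by 0.80 and 0.23 log2 units (limma adjusted p = 0.011 and 0.0145), the call of Nfkb1 being lost under median-of-ratios scaling. The receptor genes Il1r1 and Tnfrsf1a were lower by -0.33 and -0.19 log2 units (limma adjusted p = 0.00128 and 0.0342), and the call of Tnfrsf1a was lost without YKL-05-099 replicate 1, 2 or 4 or vehicle replicate 2 or 4. Socs3 was also called higher, at 210.5 ± 42.4 FPKM in YKL-05-099 mice and 144.4 ± 45.3 FPKM in vehicle mice (limma adjusted p = 0.0464). The C/EBP gene Cebpd was also called lower, at 34.8 ± 9.89 and 50.3 ± 10.3 FPKM (limma adjusted p = 0.047). Their calls were lost in 11 and 10 of 18 alternative analyses. Cebpa and Cebpb were not called (limma adjusted p = 0.35 and 0.45). Il6, Il1b, Tnf and Osm were below the filter. These genes were named after their values were seen. In culture the genes apart and lower were 5 of 9 acute-phase genes compared, 5 of 11 complement components and 2 of 6 complement regulators. They were also none of 5 complement receptors, 1 of 6 receptors of acute-phase proteins and 2 of 18 inducers. None was apart and higher. Over all genes compared 3.06% were apart and lower and 2.08% apart and higher. Of the genes apart, Cd14, Steap4, Fcna, C1qa, C1qb, C1qc and Cd36 were under 1 FPKM in culture. They entered through the mouse libraries alone and could be apart only as lower, so these counts are read no further.

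**Figure D4:**
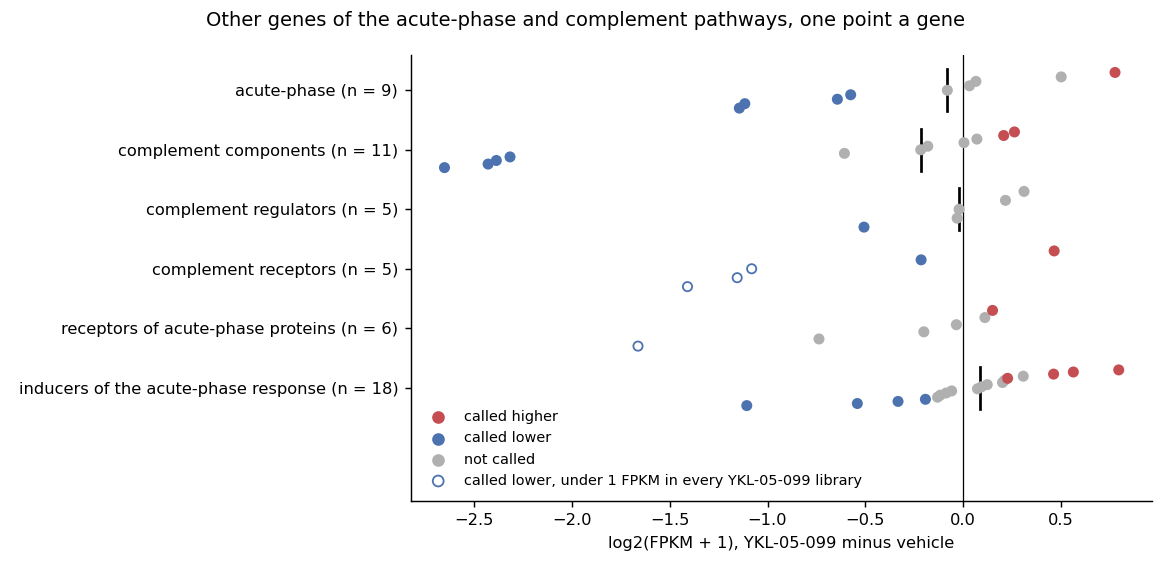
Log2 fold change (YKL-05-099 minus vehicle, log2(FPKM + 1) scale) of each tested gene in the 6 pathway lists, 1 point a gene, with called genes coloured and a bar at the median of a list. Open points mark the 4 genes that passed the filter through the vehicle libraries alone, and the 2 lists that hold them have no median bar; the inducers lie around 0, at a median of 0.08.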

How the data were processed

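RNA was converted to stranded, poly(A)-selected libraries and sequenced in pairs, per the labels' protocols; bcl2fastq 2.19 and the build GRCm38 are named in the submitters' processing notes. Aligner and quantification program: not given in the sources used here. Per the file headers, the authors deposited 1 FPKM value and 1 status for every gene in every library. Of 48302 rows, 65 second rows of a gene and 7 genes with a failed estimate were left out, which left 48230. Where a symbol had more than 1 gene ID, the one with the higher mean over the 9 libraries was used. Starts in the table count from 0, and 1 was added. FPKM are not counts, so fragment totals are approximate. An exact 0 is given as listed at 0.

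The 4 YKL-05-099 and 4 vehicle libraries were compared on the log2(FPKM + 1) scale in limma 3.58.1 (R 4.3.3), with a mean-variance trend and without a block, on genes with at least 1 FPKM in at least 4 libraries, Benjamini-Hochberg adjusted p under 0.05 being called. This scale understates changes of low genes. Alternatives changed 1 choice each (pseudocount, filter, scaling, trend, libraries in the fit, replicate block, leaving out a library). The functions were tested on simulated data. The members, the gene and marker lists and the rule for named genes were chosen with earlier results of these data known. That rule named all members, up to 6 called genes a list (smallest p first) and copies. It also named the 5 genes with the highest positive correlation, predicted and clone symbols left out. Identities were computed with Biopython 1.88 from GENCODE M21.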

Additional observations from a re-analysis of the deposited data

How the results depend on the processing

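Saa3, Hp and C3 were called in the same direction in all 18 alternatives, with log2 fold changes between -3.46 and -3.03 for Saa3, 0.61 and 0.80 for Hp, and -0.83 and -0.64 for C3. No alternative reversed a direction. The other calls were less stable. With no filter on low values 3 members were called, 2 of them lower, and without the mean-variance trend 3 were called lower. Leaving out 1 library at a time left 3 to 6 members called, 2 to 5 of them lower; 2 or 3 were called lower without YKL-05-099 replicate 1 or 4 or without vehicle replicate 1, 2 or 4. Over all genes 4226 to 5533 were called in these fits, and of the 123 list genes 20 to 30. Of the 27 list genes called, 16 held in every alternative that tested them. With no filter on low values Mt2, Cd14, Steap4, C2, Masp1, Calr, Tnfrsf1a, Cebpd and Socs3 lost their calls. With a replicate block Tnfrsf1a, Cebpd and Socs3 lost theirs. In the cultured library 1238 genes were apart with a pseudocount of 0.1, against 632 with 1, and 5 to 6 members. The cause of these shifts was not tested.

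Replicate numbers are in the titles of both mouse groups. Same-numbered libraries deviated together at r of -0.047 to 0.172 in 4 pairs, and other pairs at -0.266 to 0.158. The ranges overlap and show no clear pairing by number, but with 4 such pairs a weak one could go unseen. With a replicate block 4830 genes and 5 members were called, 4 of them lower. FPKM carry no exact depth, so low levels, such as those of C4b and Cfb in culture, have no interval.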

Other observations

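Clu, which encodes clusterin, an inhibitor of the terminal complement complex, averaged 5438 ± 686 FPKM in YKL-05-099 mice and 5524 ± 180.2 FPKM in vehicle mice (SD, n = 4 each), and was 181.7 FPKM in culture. Serping1, the inhibitor of C1, averaged 348.0 ± 22.5 FPKM in YKL-05-099 mice and 284 ± 56.2 FPKM in vehicle mice, and was 15.3 FPKM in culture. Neither was called between the mouse groups (limma adjusted p = 0.821 for Clu and 0.053 for Serping1), and both were apart and lower in culture. Cr1l, a membrane regulator of C3 convertases, was at nearly one level, averaging 35.1 FPKM in YKL-05-099 mice, at 34.9 FPKM in culture and averaging 35.5 FPKM in vehicle mice. These genes were named after their values were seen.

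Haptoglobin binds haemoglobin, whose transcripts make up most of the erythroid marker sum in vehicle mice. Within YKL-05-099 mice Hp was highest, at 37.1 FPKM, in the library with the highest erythroid sum, and within vehicle mice it was highest, at 25.0 FPKM, in the library with the lowest. Their part in the result for Hp was not tested.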
